A study of Mus musculus with 48 samples.

Results

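The 39 genes described here encode proteins that carry cells through G2 and mitosis. They were taken as a named list, matched by symbol to Ensembl identifiers in the count files, and all 39 were found among the 47643 identifiers counted. They were followed in organoids, small epithelial structures grown in a gel, from C57BL/6 submandibular salivary glands, the donors being 8 to 12 weeks old. Organoids sat in Matrigel in a medium with EGF, FGF2, insulin, dexamethasone, the ROCK inhibitor Y27632 and media conditioned with R-spondin1 and Wnt3a. On day 5 of culture they received 4, 7 or 15 Gy of photons, or 4, 7 or 15 Gy of protons from the plateau of the beam, or were left unirradiated. RNA was collected 2 or 6 days later, so that 48 libraries fall into 16 groups, with mice 1, 2 and 3 in each. The libraries were named throughout by the days after irradiation, so day 2 and day 6 refer to collection and not to the age of the culture. The 2 kinds of irradiation took place on separate days and have separate unirradiated controls, so radiation type and day of irradiation cannot be told apart. The p-values rest on the spread among libraries of the same group, 3 mice in each, pooled over all groups of a fit. The main fits do not pair libraries of the same mouse.

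Cells enter mitosis when the kinase Cdk1 is bound by cyclins A and B and freed of its inhibitory phosphates. Most of the genes involved are switched on together late in the cycle by the transcription factors B-Myb and Foxm1 and are held down in resting cells, so their transcripts mark dividing cells. Ionizing radiation breaks DNA, and cells with breaks commonly hold back mitotic entry, partly through p53 and its target p21. In the salivary gland, dividing cells are few in the adult tissue, whereas organoids are grown under conditions that favour division. A bulk library measures RNA of all cells together, so fewer dividing cells and less of these transcripts per cell cannot be told apart.

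The start regions of these genes are shown because the members share letters there that the list did not use. RefSeq (GRCm38.p6) gave 33 windows, each from 250 bases before to 50 bases after an annotated start, for 31 of the 39 members. The cell cycle genes homology region, known as the CHR, is an element through which such promoters are held down and switched on, and it was searched as TTTGAA or, in a variant form, as TTTAAA on both strands. At least 1 of these was present in 81.8% of the members' windows, against 27.6% of all 32851 promoters in the table. Within 100 bases before to 50 bases after the start the shares were 75.8% of the members' windows and 12.8% of all promoters. The CCAAT box, bound by the factor NF-Y, was searched as CCAAT on both strands. It was present in 78.8% of the members' windows, against 37.4% of all promoters, and 2 or more copies were present in 54.5% against 11.7%. A CHR together with a CCAAT box was found in 69.7% of the members' windows, against 10.7% of all promoters. Ccna2, Cdc25c, Foxm1, Aurkb, Incenp, Tpx2, Dlgap5 and Kif20a had no window in the table used here. Below, 150 bases of 4 members are given 5′ to 3′ on the gene's strand, from 120 bases before the start, with CHR and CCAAT letters in capitals. Ccnb2 (chr9:70421525-70421674, minus strand), Cdk1 (chr10:69352883-69353032, minus strand) and Ube2c (chr2:164769809-164769958, plus strand) hold both. Pttg1 (chr11:43425952-43426101, minus strand), the member that moved differently from the others with culture time, holds neither.
Ccnb2: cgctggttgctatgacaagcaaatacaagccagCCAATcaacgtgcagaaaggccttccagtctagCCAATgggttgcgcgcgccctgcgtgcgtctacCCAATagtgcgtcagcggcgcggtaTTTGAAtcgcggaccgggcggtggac
Cdk1: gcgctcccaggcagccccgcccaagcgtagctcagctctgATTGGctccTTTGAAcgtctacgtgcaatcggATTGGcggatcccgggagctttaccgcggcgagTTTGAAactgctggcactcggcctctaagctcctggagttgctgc
Ube2c: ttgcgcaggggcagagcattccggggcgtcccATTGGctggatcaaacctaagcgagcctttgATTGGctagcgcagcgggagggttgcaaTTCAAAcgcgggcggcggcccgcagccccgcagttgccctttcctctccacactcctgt
Pttg1: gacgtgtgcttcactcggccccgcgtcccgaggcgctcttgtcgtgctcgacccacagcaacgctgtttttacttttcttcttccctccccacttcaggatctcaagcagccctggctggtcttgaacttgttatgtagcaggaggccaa
The windows of Nuf2 and Nusap1 also hold neither set of letters, and those of Bub1, Cks2 and Nek2 hold a CCAAT box without a CHR. With culture time Nuf2 had log2 changes of -1.90 in photon and -1.52 in proton controls, and Nusap1 -1.91 and -1.38, below 0 unlike Pttg1. The windows rest on annotated starts, and which starts were used in the organoids was not tested. A match is a description of letters and not of binding.

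Libraries held between 314409 and 4745719 gene counts (median 2952939). Mouse 3 at 4 Gy of photons on day 6 was the shallowest, and there 8 members had a count of 0, the members summed to 198 counts and 3 counts corresponded to 11 CPM. The next lowest total was 1311666. CPM are counts scaled to a common library size, each library's total having first been adjusted by the TMM method, and a 3′ count stands for 1 transcript end whatever the gene's length. The labelled tissue was checked against marker genes: 8 epithelial markers summed to between 6470 and 19100 CPM in every library. Markers of fibroblasts summed to between 0 and 3.28 CPM, of endothelium to between 0 and 2.31 CPM with Cdh5 at 0, and of immune cells to between 1.03 and 11.9 CPM with Cd3e and Adgre1 at 0. Acinar markers summed to between 0.875 and 27.2 CPM.

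Several libraries stood apart from the others of their group in these genes, and values without the library concerned stand beside the results that rest on it. At day 6 after 15 Gy of protons, 38 of 39 members were higher in mouse 2 than in the mean of mice 1 and 3. The members summed to 497 CPM in mouse 1, 1222 CPM in mouse 2 and 559 CPM in mouse 3 of that group. After 7 Gy of protons at day 6, 38 members were higher in mouse 1 and 38 were lower in mouse 2 than in the other two. After 7 Gy of photons at day 6, 38 members were lower in mouse 3. At day 2 after 4 Gy of photons, 38 members were lower in mouse 2. The member that went against the rest was Pttg1 in the 15 Gy library, in the 7 Gy proton library of mouse 2 and in the 7 Gy photon library. It was Pttg1 as well in the 4 Gy photon library at day 2.

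**Figure D1:**
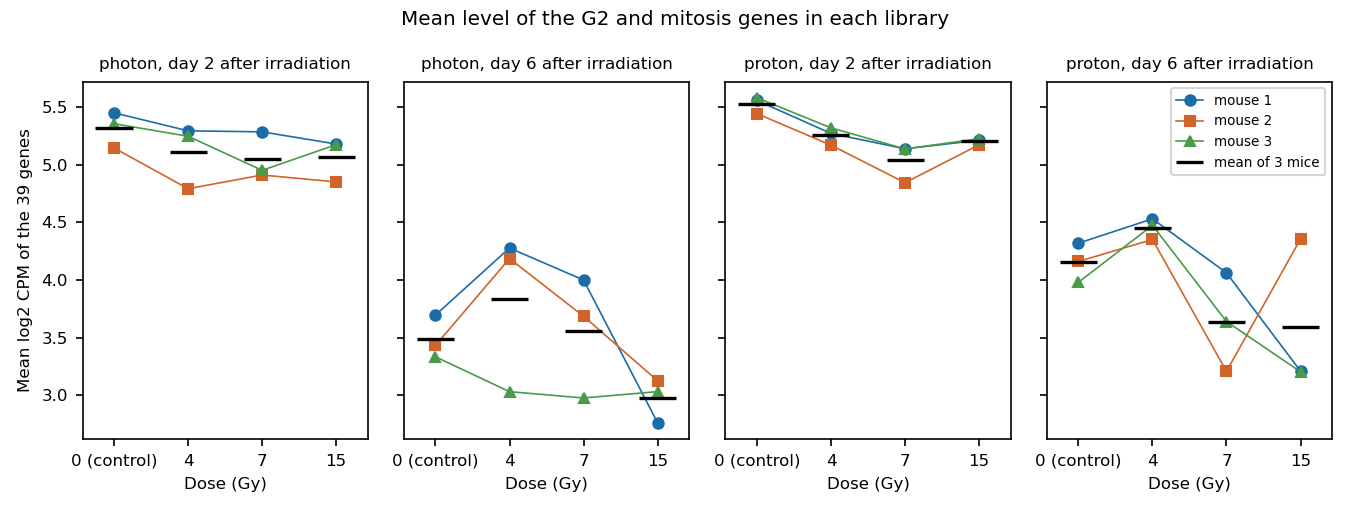
Mean log2 CPM of the 39 members in each library (points, by mouse) joined across doses in Gy, with the mean of the 3 mice as a bar, for photons and protons at days 2 and 6. Levels at day 2 lie above those at day 6 in both series, and the 15 Gy proton library of mouse 2 at day 6 lies above the other two of its group.

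The largest change in these genes came with culture time in organoids that were not irradiated. Between day 2 and day 6 the photon controls fell in 38 of 39 members and rose in none, with a median log2 change of -1.92, while the median of all 11578 genes tested was -0.01. The proton controls fell in 36 members and rose in 1, with a median of -1.41, against 0.01 over all genes tested. Over all genes, 8.49% were called lower and 6.25% higher in the photon controls, and 9.15% lower and 8.28% higher in the proton controls. A gene was called where edgeR's quasi-likelihood test gave a Benjamini-Hochberg adjusted p under 0.05 over all genes tested. The 36 members that fell in proton controls also fell in photon controls. In each series all 3 day 6 libraries lay below all 3 day 2 libraries for 37 of 39 members, which 13.6% of all genes did in the photon series and 18.7% in the proton series. Mouse by mouse, the median change of the members was -1.92, -1.74 and -2.17 in the photon series and -1.29, -1.23 and -1.54 in the proton series. Epithelial markers moved with time as well, at 8080 to 8890 CPM on day 6 and 10900 to 16500 CPM on day 2 in photon controls, and at 9150 to 10500 CPM on day 6 and 13100 to 16200 CPM on day 2 in proton controls. Their part in the result was not tested.

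Genes of mitotic entry had a median of -2.33 in photon controls and -1.25 in proton controls, and 8 and 6 of 8 fell. Foxm1 (ENSMUSG00000001517), a transcription factor of this programme, had 2.58, 3.11 and 3.64 CPM at day 6 in photon controls, against 14.1, 13.9 and 20.9 CPM at day 2 (-2.37 ± 0.27, log2 change ± SE). In proton controls it had 6.89, 6.28 and 3.55 CPM at day 6, against 17.02, 15.5 and 20.7 CPM at day 2 (-1.66 ± 0.33). Cdk1 (ENSMUSG00000019942), the kinase that starts mitosis, had 21.7, 15.99 and 24.1 CPM at day 6 in photon controls, against 118, 65.6 and 50.3 CPM at day 2 (-1.92 ± 0.31). The day 6 libraries of both genes lay below every day 2 library in both series. Ccnb1 (ENSMUSG00000041431), cyclin B1, had 9.03, 9.32 and 6.44 CPM at day 6 in photon controls, against 48.2, 38.4 and 38.8 CPM at day 2 (-2.35 ± 0.32). Plk1 (ENSMUSG00000030867), a kinase that promotes entry and spindle assembly, had 26.9, 19.98 and 17.9 CPM at day 6 in photon controls, against 86.1, 85.5 and 74.9 CPM at day 2 (-1.91 ± 0.28). The cyclin B2 gene Ccnb2, with -2.67 ± 0.27 and an adjusted p of 4.99e-07 by the same test, had the smallest p of all members in photon controls. It was followed by Cenpa (-2.54 ± 0.27), Tpx2 (-2.08 ± 0.22), Ccna2 (-2.31 ± 0.26) and Foxm1. The lowest value in photon controls was that of Cdc25c (-3.04 ± 0.54), the phosphatase that activates Cdk1. Its size is uncertain, since it rests on 8 counts in all at day 6, against 51 at day 2. The day 6 mean of 0.617 CPM lay below the 0.646, 1.33 and 0.841 CPM to which 3 counts corresponded there. In proton controls Cdc25c (-0.91 ± 0.53, adjusted p = 0.261) and Cks2 (-0.68 ± 0.35, adjusted p = 0.199), which encodes a small subunit of Cdk complexes, did not pass the edgeR test.

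Among chromosome structure genes, Mki67 (ENSMUSG00000031004), whose protein Ki-67 coats mitotic chromosomes and marks dividing cells, had 34.4, 21.8 and 18.8 CPM at day 6 in photon controls, against 86.6, 72.4 and 134 CPM at day 2 (-1.93 ± 0.34). In proton controls Mki67 had 42.8, 26.8 and 24.4 CPM at day 6, against 113, 123 and 110.2 CPM at day 2 (-1.87 ± 0.40). Top2a (ENSMUSG00000020914), the topoisomerase that untangles sister chromatids, had 117, 114 and 78.5 CPM at day 6 in photon controls, against 315, 326 and 479 CPM at day 2 (-1.85 ± 0.29). All 4 genes of the chromosomal passenger complex, which corrects chromosome attachment, fell in both series. Birc5 (ENSMUSG00000017716), which encodes its subunit survivin, had 31.6, 39.1 and 29.98 CPM at day 6 in photon controls, against 134, 121 and 227 CPM at day 2 (-2.26 ± 0.29). In proton controls Birc5 had 95.5, 81.6 and 60.9 CPM at day 6, against 175, 146 and 170.4 CPM at day 2 (-1.04 ± 0.30). The kinase subunit gene Aurkb overlapped between days in photon controls, since mouse 3 had 8.41 CPM at day 6 and 7.85 CPM at day 2.

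All 7 spindle genes fell in both series. Kif11 (ENSMUSG00000012443), a motor that pushes the spindle poles apart, had 11.2, 8.44 and 10.9 CPM at day 6 in photon controls, against 37.9, 26.4 and 35.6 CPM at day 2 (-1.68 ± 0.35). Tpx2 (ENSMUSG00000027469), which activates Aurora A and seeds microtubules, had 22.4, 19.1 and 15.1 CPM at day 6 in photon controls, against 70.3, 81.4 and 91.1 CPM at day 2. Day 6 did not overlap with day 2 for either gene. Hmmr (-2.18 ± 0.30, adjusted p = 7.18e-06 by edgeR's test), which organizes the spindle poles, was both the lowest and the member with the smallest p in proton controls. After it came Anln (-1.73 ± 0.24), Cenpa (-1.90 ± 0.30), Ube2c (-1.63 ± 0.26) and Nusap1 (-1.38 ± 0.22).

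All 9 kinetochore and checkpoint genes fell in both series, with medians of -2.08 and -1.61. Cenpf (ENSMUSG00000026605), a kinetochore protein, had 34.2, 24.9 and 18.2 CPM at day 6 in photon controls, against 116, 99.9 and 169.7 CPM at day 2 (-2.29 ± 0.28). Bub1b (ENSMUSG00000040084), which encodes the checkpoint protein BubR1, had 3.66, 3.11 and 5.04 CPM at day 6 in photon controls, against 15.5, 10.9 and 26.2 CPM at day 2 (-2.08 ± 0.34). Levels at day 6 were below the lowest day 2 library for both. All 6 cytokinesis genes fell too, with medians of -1.62 and -1.33. Prc1 (ENSMUSG00000038943), which bundles microtubules between the separating chromosomes, had 40.2, 39.96 and 24.9 CPM at day 6 in photon controls, against 115, 111 and 97.4 CPM at day 2 (-1.63 ± 0.19). Anln (ENSMUSG00000036777), the scaffold of the contractile ring, had 15.7, 12.4 and 15.97 CPM at day 6 in photon controls, against 76.3, 50.1 and 40.8 CPM at day 2 (-1.92 ± 0.29).

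The 3 anaphase genes were divided. Cdc20 (ENSMUSG00000006398), the activator of the anaphase-promoting complex, had 9.03, 7.99 and 7.57 CPM at day 6 in photon controls, against 43.6, 26.4 and 23.6 CPM at day 2 (-1.94 ± 0.32). Ube2c (ENSMUSG00000001403), the ubiquitin-conjugating enzyme of that complex, had 13.3, 11.1 and 14.8 CPM at day 6 in photon controls, against 82.3, 48.6 and 45.03 CPM at day 2 (-2.16 ± 0.28). Both fell in both series. Pttg1 (ENSMUSG00000020415) encodes securin, which holds back the enzyme that cuts sister chromatids apart and is destroyed through that same complex. It had 70.4, 57.7 and 77.1 CPM at day 6 in proton controls, against 39.9, 40.5 and 41.5 CPM at day 2, and rose (0.76 ± 0.16, adjusted p = 0.00093 by edgeR's test), with no overlap between days. In photon controls Pttg1 had 73.1, 90.1 and 75.7 CPM at day 6, against 52.8, 50.9 and 75.9 CPM at day 2 (0.42 ± 0.15, adjusted p = 0.0559), and mouse 3 overlapped between days. It passed in photon controls by DESeq2, with library sizes in place of TMM and without day 2 mouse 3. The median change of the 25 members with CHR letters in their window was -1.93 in photon and -1.48 in proton controls, and that of the 6 without was -1.91 and -1.40.

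The first irradiation question was what had changed 2 days after irradiation. After photons no member passed the test at any dose, in either direction. Members' medians were -0.23, -0.28 and -0.28 at 4, 7 and 15 Gy, with 35, 33 and 33 of 39 members below 0. The median at 4 Gy was -0.13 without control mouse 1 and -0.10 without 4 Gy mouse 2, and that at 7 Gy was -0.45 without 7 Gy mouse 1. Over all genes tested, 0.127, 1.14 and 2.38% were called lower and 0.534, 1.56 and 2.57% higher. At an unadjusted p under 0.05, 3, 11 and 5 members were lower and 0 were higher, and DESeq2 called 0, 0 and 0 lower. Here and below, no share of all genes at that unadjusted p is given, so such counts are not set against other genes. The lowest value at 4 Gy was that of the checkpoint kinase gene Ttk (-0.69 ± 0.32), and at 7 and 15 Gy that of Cdc25c (-1.21 ± 0.40 and -1.02 ± 0.41). The highest were those of Kif20a, a cytokinesis motor gene, at 4 and 15 Gy (0.34 ± 0.23 and 0.32 ± 0.23) and of the centrosome kinase gene Nek2 at 7 Gy (0.25 ± 0.42). Between 15 and 4 Gy no member passed, with a median of -0.01 and a range from Cenpa (-0.55 ± 0.27) to Cdc20 (0.36 ± 0.25); 0.0272% of all genes were called lower and 0.236% higher, and no member reached an unadjusted p under 0.05 or was called by DESeq2. Without control mouse 3, 1 member was called higher and 1 lower at 15 Gy, and likewise in the trend with dose.

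By library, some members at 15 Gy of photons on day 2 lay apart from controls and others overlapped with them. Mki67 had 57.4, 56.001 and 57.8 CPM at 15 Gy, against 86.6, 72.4 and 134 CPM in controls, and the groups did not overlap. Prc1 had 94.9, 78.3 and 89.3 CPM at 15 Gy, against 115, 111 and 97.4 CPM in controls, again without overlap. Plk1 had 106, 68.9 and 76.6 CPM at 15 Gy, against 86.1, 85.5 and 74.9 CPM in controls, and its groups overlapped. At 15 Gy all 3 libraries lay below all 3 controls in 7 of 39 members, as did 10.6% of all genes, at 7 Gy in 6 (9.86%) and at 4 Gy in 4 (6.27%).

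Protons at day 2 moved a few members past the threshold. After 7 Gy, 4 of 39 fell, or 10.3%, where 1.32% of all genes were called lower and 1.62% higher, with a median over the members of -0.52 and 38 members below 0. Cdca8, which encodes the passenger subunit borealin, had 38.6, 35.1 and 47.1 CPM at 7 Gy, against 70.4, 71.5 and 71.8 CPM in controls (-0.80 ± 0.14, adjusted p = 0.00408 by edgeR's test). Cenpa, the histone variant of centromeres, had 25.7, 17.3 and 25.2 CPM at 7 Gy, against 46.04, 36.4 and 53.1 CPM in controls (-0.99 ± 0.26, adjusted p = 0.0497 by edgeR's test), the lowest value of the members. Racgap1 and Ube2c are the other two, and none of the 4 overlapped with controls. Racgap1 (-0.73 ± 0.19, adjusted p = 0.0441 by edgeR's test) encodes a protein of the central spindle. Ube2c had 37.8, 32.1 and 45.2 CPM at 7 Gy, against 58.8, 67.4 and 64.2 CPM in controls (-0.71 ± 0.18, adjusted p = 0.0462 by edgeR's test). Pttg1 was the highest member (0.35 ± 0.16) and the single one above 0. All 3 libraries lay below all 3 controls in 26 of 39 members, against 9.9% of all genes. With the mouse as a block 7 members were called, and the count was 1 on omitting the control of mouse 1, 2 or 3, or mouse 1, 2 or 3 of the 15 Gy group, 2 on omitting mouse 3 of the 4 Gy group, or mouse 1 or 2 of the 7 Gy group and 9 on omitting mouse 2 of the 4 Gy group. Genes of any kind called in either direction were 411 with the block and 436 in the fit with 9, against 310 in the main fit.

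After 15 Gy of protons 2 of 39 members fell at day 2, or 5.13%, where 4.37% of all genes were called lower and 3.94% higher, so the members' share was near that of all genes. Racgap1 had 32.6, 28.1 and 32.1 CPM at 15 Gy, against 53.8, 50.5 and 63.7 CPM in controls (-0.85 ± 0.18, adjusted p = 0.00651 by edgeR's test), the lowest member, without overlap. Nusap1, which bundles spindle microtubules, had 47.3, 41.95 and 58.01 CPM at 15 Gy, against 64.2, 71.9 and 69.3 CPM in controls (-0.48 ± 0.14, adjusted p = 0.0437), also without overlap. The members' median was -0.33, Pttg1 was highest (0.23 ± 0.15), and all 3 libraries lay below all 3 controls in 22 of 39 members, against 15.8% of all genes. The count of 2 was 1 on omitting the control of mouse 1, 2 or 3, mouse 1 or 3 of the 4 Gy group, mouse 1 of the 7 Gy group, or mouse 1 or 2 of the 15 Gy group, and the call of Racgap1 held with each library left out. After 4 Gy no member was called, where 0.351% of all genes were called lower and 0.703% higher, while 9 were lower at an unadjusted p under 0.05 and DESeq2 called 0. Its range was from Dlgap5 (-0.81 ± 0.28), a spindle protein gene, to Pttg1 (0.20 ± 0.15), with a median of -0.25. Mouse 2 at 4 Gy differed from the other two in both directions, at 172 CPM of Cenpe against 78.4 and 97.6 CPM, and 15.8 CPM of Kif20a against 43.98 and 41.3 CPM, and without it 1 member was called lower. Between 15 and 4 Gy no member was called by edgeR or DESeq2 and 1 was lower at an unadjusted p under 0.05, where 0.0665% of all genes were called lower and 0.057% higher. Members ran there from Kif2c (-0.42 ± 0.22), a microtubule depolymerase gene, to Dlgap5 (0.31 ± 0.28).

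**Figure D2:**
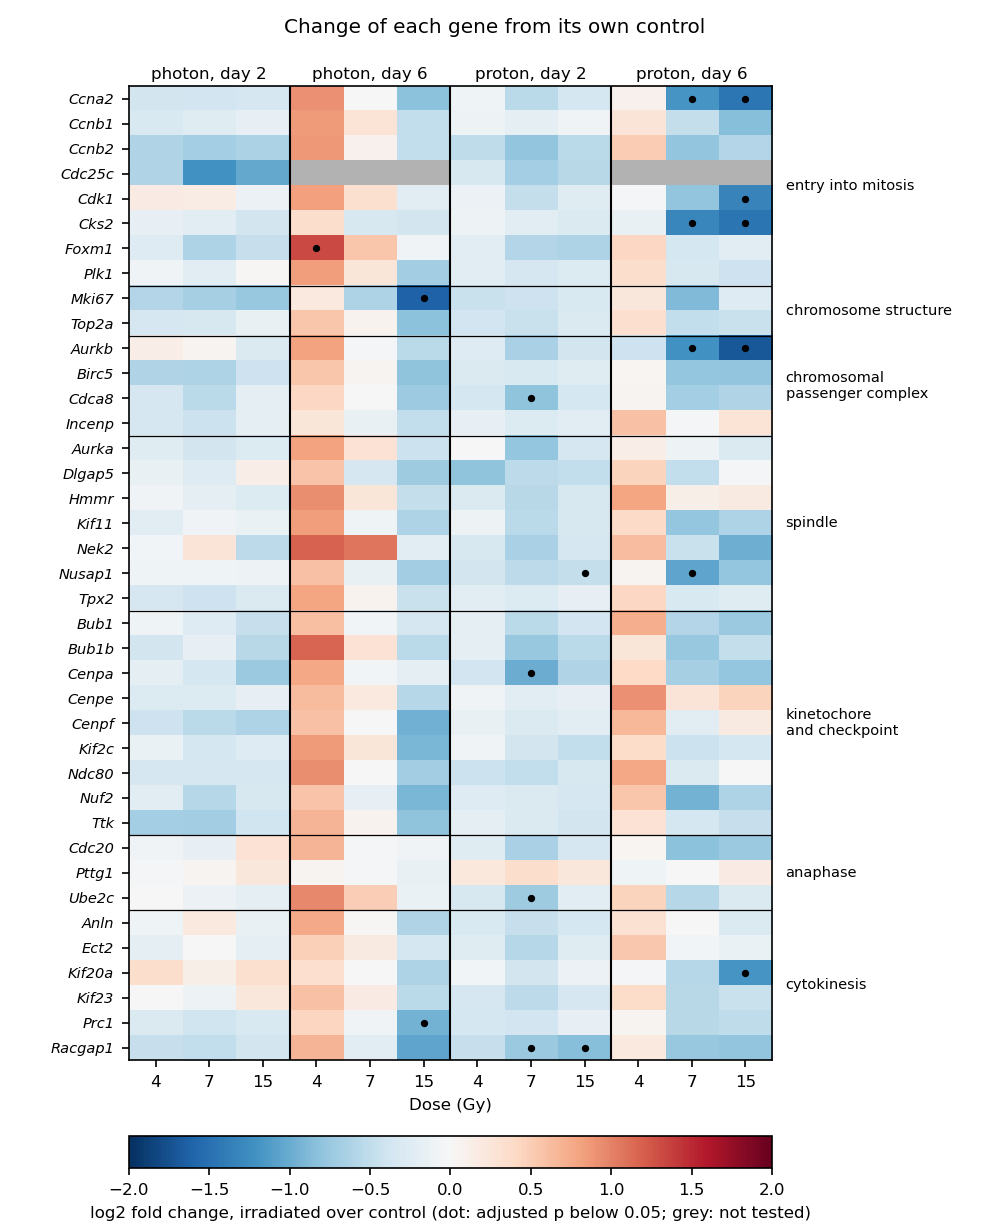
Log2 change of each of the 39 members (rows, grouped by role) against the matching control for 4, 7 and 15 Gy of photons and protons at days 2 and 6, on a colour scale of log2 values, with called members marked. Most members are below 0 at day 2 and at 15 Gy on day 6, and most are above 0 at 4 Gy on day 6; grey marks a member that was not tested.

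At day 6 the members' median was above 0 at 4 Gy and below 0 at 15 Gy in both series. Few members passed the test, however, and at 15 Gy of protons the median in mouse 2 was above 0. After 4 Gy of photons all 38 members tested had values above 0, with a median of 0.68, against 0.00 over all genes, but 1 passed the test, 2.63% of those tested, where 0.937% of all genes were called higher. Cdc25c was left out at day 6 in both series by the filter on low counts. The 1 member was Foxm1, with 6.42, 8.88 and 7.31 CPM at 4 Gy, against 2.58, 3.11 and 3.64 CPM in controls (1.32 ± 0.30, adjusted p = 0.045 by edgeR's test), and without overlap. The 7.31 CPM of mouse 3 lies below the 11 CPM to which 3 counts correspond in that shallow library, so the lack of overlap is uncertain there. The lowest member was Pttg1 (0.06 ± 0.14). The count was 0 on omitting the control of mouse 1, 2 or 3, mouse 1 or 2 of the 4 Gy group, mouse 1 of the 7 Gy group, or mouse 1, 2 or 3 of the 15 Gy group and 2 on omitting mouse 3 of the 4 Gy group, or mouse 3 of the 7 Gy group. The call of Foxm1 was lost in 9 of 12 such fits, with the mouse as a block, with DESeq2 and in a fit of only the 4 Gy and control groups, and without the filter on low counts 12 members were called. At an unadjusted p under 0.05, 18 members were higher. All 3 libraries lay above all 3 controls in 13 of 38 members, against 5.8% of all genes. Mouse 3 of the 4 Gy group is the shallowest library, so this count rests partly on few reads.

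Libraries of the 4 Gy photon group differed in depth as well as in level. Tpx2 had 30.6, 35.5 and 29.3 CPM at 4 Gy, against 22.4, 19.1 and 15.1 CPM in controls, with all 3 libraries above. Cdk1 had 40.6, 36.9 and 21.9 CPM at 4 Gy, against 21.7, 15.99 and 24.1 CPM in controls, and mouse 3 lay within the control range. Ccnb1 had 12.3, 18.97 and 0 CPM at 4 Gy, against 9.03, 9.32 and 6.44 CPM in controls, where the 0 of mouse 3 stands beside a floor of 11 CPM in that shallow library. Mouse by mouse the median change was 0.56, 0.74 and 0.22, with 37, 36 and 20 of 39 members above 0. In mouse 3 the mean and the median differ in sign: the members' mean log2 CPM was 3.03 at 4 Gy, against 3.33 in its control, with 8 members at a count of 0. After 4 Gy of protons the median was 0.34, or 0.20 without control mouse 3, with 33 of 38 members above 0 and none called by edgeR or DESeq2, where 1.13% of all genes were called higher and 0.435% lower. There 3 were higher at an unadjusted p under 0.05, and the range was from Aurkb (-0.42 ± 0.33) to Cenpe (0.91 ± 0.39), a motor of the kinetochore. Cenpf had 58.9, 54.5 and 61.3 CPM at 4 Gy of protons, against 53.7, 31.4 and 25.9 CPM in controls, and Kif11 had 20.8, 19.8 and 19.8 CPM, against 17.2, 15.4 and 13.7 CPM. All 3 libraries lay above all 3 controls in 11 of 38 members, against 10.9% of all genes.

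After 7 Gy of photons no member was called at day 6 by edgeR or DESeq2, where 1.11% of all genes were called lower and 1.49% higher, and 1 was higher at an unadjusted p under 0.05. The members' median was 0.02, from Mki67 (-0.62 ± 0.30) to Nek2 (1.08 ± 0.45). Plk1 had 35.2, 30.2 and 13.1 CPM at 7 Gy, against 26.9, 19.98 and 17.9 CPM in controls, with mouse 3 lowest and the other two above every control. Without 7 Gy mouse 1 the median was -0.20 and without control mouse 3 it was -0.05. Without 7 Gy mouse 3 the median was 0.33, with 0 members called.

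At 15 Gy of photons all 38 members tested lay below 0 at day 6 and 2 fell, or 5.26%, where 2.77% of all genes were called lower and 2.52% higher. Their median was -0.55, against 0.00 over all genes. Mki67 had 4.23, 9.44 and 10.4 CPM at 15 Gy, against 34.4, 21.8 and 18.8 CPM in controls. This was the lowest member (-1.61 ± 0.32, adjusted p = 0.00787 by edgeR's test, 0.0652 without control mouse 1). Prc1 had 16.9, 16.7 and 20.8 CPM at 15 Gy, against 40.2, 39.96 and 24.9 CPM in controls (-0.95 ± 0.23, adjusted p = 0.0241 by edgeR's test). Neither gene overlapped with its controls. Foxm1 was the highest member (-0.06 ± 0.33), with 2.82, 2.81 and 3.20 CPM at 15 Gy, against 2.58, 3.11 and 3.64 CPM in controls. Top2a had 43.02, 69.3 and 61.04 CPM at 15 Gy, against 117, 114 and 78.5 CPM in controls (-0.82 ± 0.28, adjusted p = 0.122 by edgeR's test), and did not pass although its groups did not overlap. By role the medians ran from -0.13 for the 3 anaphase genes to -1.22 for the 2 chromosome structure genes. All 3 libraries lay below all 3 controls in 17 of 38 members, against 13.6% of all genes. The mouse block called 3 members, and the count was 0 on omitting the control of mouse 1, 1 on omitting the control of mouse 2, or mouse 1 or 2 of the 15 Gy group and 5 on omitting mouse 3 of the 7 Gy group.

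Protons at 7 Gy lowered 4 of 38 members at day 6, or 10.5%, where 6.59% of all genes were called lower and 5.49% higher, and the median was -0.56, against -0.00 over all genes. Ccna2, cyclin A2, had 10.1, 8.38 and 7.69 CPM at 7 Gy, against 18.7, 21.7 and 18.8 CPM in controls (-1.18 ± 0.28, adjusted p = 0.0104 by edgeR's test). Cks2 had 4.03, 3.07 and 3.84 CPM at 7 Gy, against 6.89, 9.71 and 10.7 CPM in controls (-1.30 ± 0.38, adjusted p = 0.0322 by edgeR's test), the lowest member. Nusap1 (-1.06 ± 0.29, adjusted p = 0.0211 by edgeR's test) and Aurkb (-1.22 ± 0.35, adjusted p = 0.032 by edgeR's test) also fell. All 4 lay below every control library in each mouse, as 10 of 38 members did, against 15.9% of all genes. The highest member was Cenpe (0.26 ± 0.40). With the mouse block the count was 2, and it was 1 on omitting the control of mouse 2, or mouse 2 of the 7 Gy group and 2 on omitting the control of mouse 3, or mouse 3 of the 7 Gy group.

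At 15 Gy of protons 5 of 38 members fell at day 6, or 13.2%, which equals the 13.2% of all genes that were called lower, and the median was -0.47, against -0.02 over all genes. By role they were 3 of the 7 tested genes of mitotic entry, 1 of 4 of the passenger complex and 1 of 6 of cytokinesis. Whether roles differed was not tested. Ccna2 had 6.42, 11.9 and 3.63 CPM at 15 Gy, against 18.7, 21.7 and 18.8 CPM in controls (-1.44 ± 0.29, adjusted p = 0.00179 by edgeR's test). Cdk1 had 17.8, 31.3 and 8.90 CPM at 15 Gy, against 51.2, 49.1 and 44.6 CPM in controls (-1.33 ± 0.28, adjusted p = 0.00239 by edgeR's test). Aurkb, the lowest member, had 4.67, 4.09 and 1.65 CPM at 15 Gy, against 7.38, 17.1 and 10.1 CPM in controls (-1.70 ± 0.38, adjusted p = 0.00351 by edgeR's test). Mouse 2 was below every control in these 3 genes, as were mice 1 and 3. Cks2 (-1.45 ± 0.39, adjusted p = 0.0121 by edgeR's test) fell as well, and Kif20a (-1.18 ± 0.40, adjusted p = 0.0409 by edgeR's test) fell in this fit. The Kif20a call was lost with the mouse block, with library sizes in place of TMM and with only the 2 groups compared. It held in 6 of 12 fits with 1 library left out. Mouse 2 at 11.2 CPM of Kif20a lay above the lowest control, at 10.8 CPM. The calls of Ccna2, Cdk1 and Aurkb held in every fit with 1 library left out and under every other setting tried.

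The library of mouse 2 set the size of the count at 15 Gy of protons. Mki67 had 6.12, 59.6 and 14.8 CPM at 15 Gy, against 42.8, 26.8 and 24.4 CPM in controls, so that mice 1 and 3 lay below and mouse 2 above all controls. Top2a had 67.1, 192 and 77.2 CPM at 15 Gy, against 190.0, 148 and 114 CPM in controls, with the same order. Cenpe was the highest member (0.44 ± 0.40), with 21.9, 71.9 and 21.4 CPM at 15 Gy, against 41.3, 23.98 and 17.8 CPM in controls. Without 15 Gy mouse 2, 18 members were called lower and the median was -1.02, and without control mouse 3 the count was 3. In these fits 2325 and 1768 genes of any kind were called in either direction, against 2611 in the main fit. Mouse by mouse the median change was -1.21, 0.16 and -0.67, with 38, 14 and 32 of 39 members below 0. All 3 libraries lay below all 3 controls in 5 of 38 members, against 17.4% of all genes. That library had 2806333 gene counts and 11.4% of mitochondrial counts, against 3225080 and 2892862 counts and 8.56 and 10.7% in mice 1 and 3, and the part of these in the result was not tested.

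**Figure D3:**
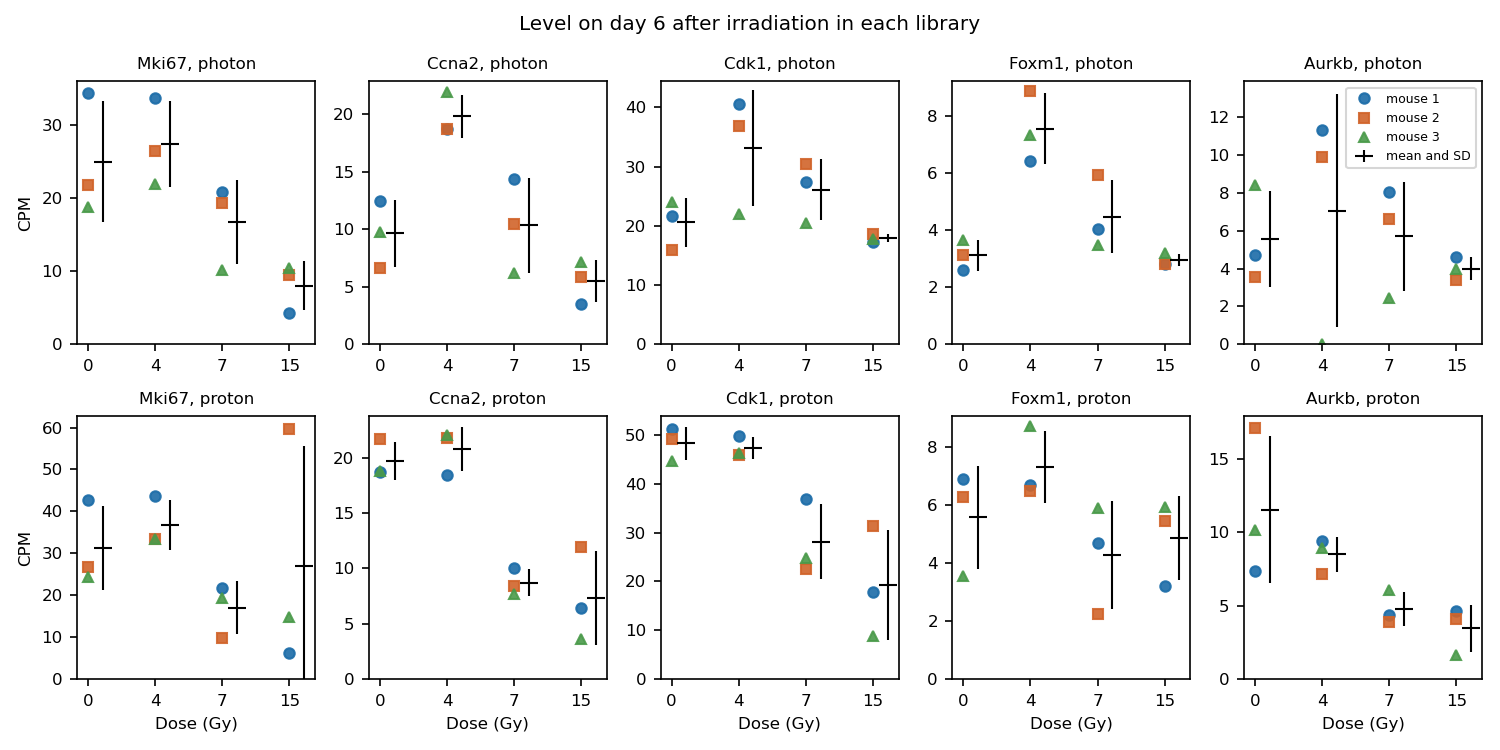
CPM of Mki67, Ccna2, Cdk1, Foxm1 and Aurkb in each library at day 6 (points, by mouse) for 0, 4, 7 and 15 Gy of photons and protons, with the mean and SD of each group. In the 15 Gy proton group mouse 2 lies above mice 1 and 3 for Mki67, while Cdk1 lies below every control in all 3 mice.

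Set directly against 4 Gy, 15 Gy of photons had lower values at day 6 in all 38 members, with a median of -1.35, and 2 fell, or 5.26%, where 0.141% of all genes were called lower. Prc1 had 16.9, 16.7 and 20.8 CPM at 15 Gy, against 46.2, 49.6 and 40.2 CPM at 4 Gy (-1.38 ± 0.23, adjusted p = 0.0401 by edgeR's test). Ccna2 had 3.53, 5.82 and 7.20 CPM at 15 Gy, against 18.7, 18.8 and 21.9 CPM at 4 Gy (-1.74 ± 0.31, adjusted p = 0.0443 by edgeR's test). Both groups were apart in all libraries, as in 21 of 38 members, against 7.32% of all genes. Mouse 3 of the 4 Gy group is the shallowest library, where 3 counts correspond to 11 CPM. The separation of both genes and of the 21 thus rests partly on few reads. The lowest member was Mki67 (-1.81 ± 0.33, adjusted p = 0.0519 by edgeR's test) and the highest Pttg1 (-0.21 ± 0.14). At an unadjusted p under 0.05, 37 of 38 were lower, and the share of all genes at that p is not given here. DESeq2 called 13 and the mouse block 1. The count was 0 on omitting the control of mouse 1 or 2, mouse 1 or 2 of the 4 Gy group, mouse 2 of the 7 Gy group, or mouse 1, 2 or 3 of the 15 Gy group, 1 on omitting the control of mouse 3, 6 on omitting mouse 1 of the 7 Gy group, 11 on omitting mouse 3 of the 4 Gy group and 16 on omitting mouse 3 of the 7 Gy group. In the fits with 11 and 16 called, 64 and 60 genes of any kind were called in either direction, against 16 in the main fit. The comparison at 15 Gy, at 4 Gy and between them share libraries.

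Between 15 and 4 Gy of protons at day 6, 9 of 38 members fell, or 23.7%, where 4.07% of all genes were called lower, and the median was -0.76, or -1.33 without 15 Gy mouse 2. Ccna2 had 6.42, 11.9 and 3.63 CPM at 15 Gy, against 18.5, 21.8 and 22.02 CPM at 4 Gy (-1.53 ± 0.28, adjusted p = 0.00604 by edgeR's test). Cdk1 had 17.8, 31.3 and 8.90 CPM at 15 Gy, against 49.9, 46.004 and 46.2 CPM at 4 Gy (-1.31 ± 0.27, adjusted p = 0.0116 by edgeR's test). These 2 calls held with every library left out and under every other setting. The other 7 were Nek2 (-1.60 ± 0.44), the lowest, Bub1 (-1.47 ± 0.41), a checkpoint kinase gene, Cks2 (-1.31 ± 0.37), Aurkb (-1.28 ± 0.37), Cenpa (-1.18 ± 0.30), Nuf2 (-1.17 ± 0.33), whose protein attaches microtubules to kinetochores, and Ccnb1 (-1.11 ± 0.32). Pttg1 was highest (0.26 ± 0.15). All 3 libraries were lower at 15 Gy in 16 of 38 members, against 13.2% of all genes. The mouse block called 3, and the count was 2 on omitting mouse 1 or 3 of the 4 Gy group, or mouse 3 of the 15 Gy group, 3 on omitting mouse 2 of the 4 Gy group, 5 on omitting the control of mouse 2, or mouse 3 of the 7 Gy group and 29 on omitting mouse 2 of the 15 Gy group. In the fit with 29 called, 740 genes of any kind were called in either direction, against 724 in the main fit.

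A straight line over the 4 doses gave the change in log2 units per Gy. At day 6 after photons 2 of 38 members fell with dose, or 5.26%, where 2.26% of all genes did, namely Mki67 (-0.116 ± 0.023, adjusted p = 0.0144 by edgeR's test) and Prc1 (-0.073 ± 0.019, adjusted p = 0.0486 by edgeR's test), and Pttg1 was highest (-0.012 ± 0.008). At day 6 after protons 6 of 38 fell, or 15.8%, where 13.5% of all genes did. These were Aurkb (-0.120 ± 0.025), the lowest, Ccna2 (-0.112 ± 0.024), Cks2 (-0.110 ± 0.028), Cdk1 (-0.098 ± 0.020, adjusted p = 0.00209 by edgeR's test, the smallest), Kif20a (-0.085 ± 0.026) and Ccnb1 (-0.069 ± 0.024). The call of Ccnb1 was lost with the mouse block, with library sizes in place of TMM and with log2(dose + 1). It held in 2 of 12 fits with 1 library left out. Pttg1 was highest (0.014 ± 0.009). Without 15 Gy mouse 2 the count was 20, where 2428 genes of any kind were called in either direction, against 2624 in the main fit. At day 2 after protons Racgap1 fell with dose (-0.054 ± 0.013, adjusted p = 0.0133 by edgeR's test), 1 of 39 members or 2.56%, where 3.88% of all genes did and 2.45% rose, and Pttg1 was again highest (0.013 ± 0.010). The count there was 0 on omitting the control of mouse 3, or mouse 2 of the 15 Gy group and 2 on omitting mouse 3 of the 15 Gy group. At day 2 after photons none did by edgeR or DESeq2, where 2.09% of all genes did and 2.11% rose, 5 were lower at an unadjusted p under 0.05, and the range was from Cdc25c (-0.070 ± 0.029) to Cdc20 (0.021 ± 0.016). The photon count at day 6 was 0 on omitting the control of mouse 1, or mouse 2 of the 15 Gy group and 1 on omitting the control of mouse 2, mouse 1 or 2 of the 4 Gy group, mouse 2 or 3 of the 7 Gy group, or mouse 1 or 3 of the 15 Gy group. A straight line does not follow levels that lie above control at 4 Gy and below it at 15 Gy.

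Whether protons and photons changed these genes by different amounts was tested as the difference of the 2 effects, each against its own control. No member was called at any dose or day. At 15 Gy on day 6, where 2.56% of all genes were called higher and 1.86% lower, members ran from Aurkb (-1.12 ± 0.62) to Mki67 (1.40 ± 0.70, adjusted p = 0.244 by edgeR's test). The smallest adjusted p was that of Cdk1 (-1.07 ± 0.37, 0.0932 by edgeR's test), 2 members were higher and 2 lower at an unadjusted p under 0.05, and DESeq2 called 0 higher and 0 lower. At the other doses and at day 2 no gene of any kind was called. The members' medians at day 6 were -0.36, -0.58 and 0.18 at 4, 7 and 15 Gy, and at day 2 -0.02, -0.14 and -0.01. On omitting mouse 2 from every group the median at 15 Gy on day 6 was -0.23, with 13 of 38 members above 0 in place of 24 and no gene of any kind called, and at 7 Gy it was -0.31. At day 2 the median at 4 Gy was 0.08 on omitting mouse 1 and -0.13 on omitting mouse 2, and that at 7 Gy was -0.30 on omitting mouse 1. At day 6 the extremes at 4 Gy were Aurkb (-1.19 ± 0.55) and Incenp (0.34 ± 0.35), and at 7 Gy Nek2 (-1.50 ± 0.68) and Incenp (0.13 ± 0.34), the scaffold of the passenger complex. A p that misses the threshold does not show that the 2 radiation types act alike.

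The change of effect from day 2 to day 6 at 15 Gy was tested in the same way, and no member was called by edgeR in either series. After photons, where 0.0864% of all genes were called lower and 0.0173% higher, the median difference was -0.36, from Kif20a (-0.93 ± 0.42) to Cdc25c (1.47 ± 0.83), and 3 members were lower at an unadjusted p under 0.05, with 0 called by DESeq2. The value of Cdc25c rests on few reads, with 8 counts in controls and 12 at 15 Gy on day 6. The median difference after photons was -0.15 on omitting mouse 1 and -0.67 on omitting mouse 3. After protons, where 1.59% of all genes were called lower and 1.05% higher, the median was -0.09, from Aurkb (-1.32 ± 0.46) to Cenpe (0.62 ± 0.49), with 4 lower at an unadjusted p under 0.05 and 1 called by DESeq2. On omitting mouse 2 from every proton group the median was -0.75 and 2 members were called lower, and on omitting mouse 1 the median was 0.20. At 4 Gy the same difference, a comparison added after the values were seen, had a median of 0.91 after photons and 0.62 after protons, with 38 and 35 of 39 members above 0. No member passed there by edgeR, while 22 and 9 were higher at an unadjusted p under 0.05 and DESeq2 called 0 and 0. Over all genes, none was called after photons, and 0.0179% higher and 0.0537% lower after protons. The extremes were Kif20a (-0.01 ± 0.46) and Cdc25c (1.93 ± 0.77) after photons, and Pttg1 (-0.29 ± 0.21) and Dlgap5 (1.26 ± 0.58) after protons. Cdc25c had 18 counts at 4 Gy of photons on day 6 and 8 in controls.

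A second list of 84 other genes of G2 and mitosis was set beside the members. In controls over time 61 of the 81 tested fell in the photon series and 53 in the proton series, and none rose, where 8.49 and 9.15% of all genes were called lower. In photon controls the smallest p-values belonged to Tacc3 (-1.86 ± 0.20), Knstrn (-1.17 ± 0.13), Sgo1 (-1.98 ± 0.23), which protects centromeric cohesion, Cdkn3 (-2.98 ± 0.35) and Aspm (-2.20 ± 0.26), which acts at spindle poles. In proton controls, genes among those with the smallest p-values were Aspm (-2.03 ± 0.26), Arhgap11a (-1.56 ± 0.25), Cip2a (-1.68 ± 0.29) and Spc25 (-1.36 ± 0.24), a partner of Ndc80 and Nuf2. After 15 Gy of protons at day 6, 15 of 74 fell and 2 rose, where 13.2% of all genes were called lower. In that comparison 2611 genes of any kind were called in either direction. Among them were the checkpoint gene Mad2l1 (-1.37 ± 0.26), Fbxo5 (-1.46 ± 0.32), which encodes an inhibitor of the anaphase-promoting complex, Bub3 (-0.49 ± 0.11) and Pbk (-1.28 ± 0.31), all lower. After 15 Gy of photons at day 6, 5 of 77 fell and 2 rose, where 2.77% of all genes were called lower and 2.52% higher, with Sgo2a (-0.90 ± 0.21), the chromosome motor gene Kif4 (-1.98 ± 0.47) and the condensin gene Smc4 (-0.72 ± 0.17) lower. Psrc1 (1.32 ± 0.21) and Gtse1 (1.51 ± 0.27), both known to be induced by p53, were the 2 that rose, and Psrc1 also rose after 15 Gy of protons (1.49 ± 0.24). Psrc1 rose at day 6 after 4 Gy (1.02 ± 0.23) and 7 Gy (1.10 ± 0.22) of photons and 7 Gy of protons (1.44 ± 0.24). At day 2, 6 of 79 genes were lower at 15 Gy of photons, where 2.38% of all genes were called lower, and 6 were lower and 1 higher at 15 Gy of protons, where 4.37% of all genes were called lower and 3.94% higher. Cdc25b, a phosphatase that activates cyclin-dependent kinases, was lower in both (-0.94 ± 0.18 after photons and -0.68 ± 0.17 after protons).

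DNA replication and S phase genes, 43 in the list, fell in 14 and 8 cases in the photon and proton controls over time, where 8.49 and 9.15% of all genes were called lower, with medians of -0.74 and -0.32. After 7 and 15 Gy of protons at day 6, 7 and 12 of 42 fell, where 6.59 and 13.2% of all genes were called lower, including at 15 Gy Pcna (-0.70 ± 0.14), the sliding clamp of replication, and Uhrf1 (-1.35 ± 0.28), and after 15 Gy of photons 3 of 43 did, where 2.77% of all genes were called lower. Of 7 genes of inhibitors of cyclin-dependent kinases, Cdkn1a, which encodes p21, rose at day 2 after 15 Gy of photons (0.95 ± 0.17) and after 7 and 15 Gy of protons (0.66 ± 0.14 and 0.66 ± 0.14). Cdkn2b rose at day 2 after 7 and 15 Gy of protons (0.59 ± 0.16 and 0.76 ± 0.15), and Cdkn2d fell after both (-1.19 ± 0.28 and -1.10 ± 0.26). Cdkn1b (-0.65 ± 0.15) and Cdkn1c (-1.05 ± 0.28) also fell there at 15 Gy. At day 6 Cdkn1a rose after 7 and 15 Gy of protons (0.61 ± 0.16 and 0.60 ± 0.16). In photon controls Cdkn1a rose with time (0.80 ± 0.17), and in proton controls it had 0.10 ± 0.15 (adjusted p = 0.722 by edgeR's test). Cdkn1b rose (0.66 ± 0.18) and Cdkn2c fell (-1.03 ± 0.35) in photon controls, and Cdkn2a (-0.90 ± 0.24) and Cdkn2d (-1.04 ± 0.32) fell in proton controls. At 15 Gy of protons on day 6 Cdkn2b (0.68 ± 0.19) and Cdkn2a (0.80 ± 0.24) rose as well, while Cdkn2c (-1.91 ± 0.58), Cdkn2d (-1.21 ± 0.40) and Cdkn1b (-0.52 ± 0.17) fell.

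Some members share transcribed sequence with a neighbour on the opposite strand, and the strand used in counting is not given in the sources used here, so their counts are uncertain to that extent. In the GENCODE annotation of GRCm38, Ccna2 shares 428 exonic bases with Exosc9, Kif20a shares 977 with Cdc23, Prc1 shares 670 with Rccd1 and Cdc20 shares 53 with Elovl1. Exosc9, Cdc23 and Elovl1 had 10081, 5619 and 5068 counts over the 48 libraries, against 3739, 2579 and 3326 for Ccna2, Kif20a and Cdc20. These neighbours thus had more counts than the member, while Rccd1 had 317, against 8978 for Prc1. Cdc25c shares 623 with Gm3550, which had 226 counts over the 48 libraries, against 371 for Cdc25c. Nek2, Nusap1, Cdca8, Ube2c and Plk1 share 298, 172, 145, 144 and 156 bases with neighbours that had 74, 261, 748, 19 and 0 counts, each fewer than the member. After 15 Gy of protons at day 6, where Ccna2 fell, Exosc9 rose (0.53 ± 0.17, adjusted p = 0.0307 by edgeR's test), and Cdc23 had 0.05 ± 0.18, adjusted p = 0.876 by edgeR's test. After 15 Gy of photons at day 6, where Prc1 fell, Rccd1 had 0.76 ± 0.37, adjusted p = 0.317 by edgeR's test. Ccnb1 and Ccnb2 each have a pseudogene named after them in that annotation, with which reads could be shared.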

How the data were processed

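Messenger RNA 3′ ends were counted in 48 libraries (QuantSeq, 100 ng of RNA per library, per the labels). The deposited files hold raw counts of reads per gene, with no normalization by the authors; the genome build was GRCm39, per the submitters' processing notes, which also name edgeR. Which aligner, counting program, annotation and strand setting were used is not given in the sources used here. Symbols matched 47224 of 47643 identifiers. The 5 summary lines of each file were left out; reads outside genes came to 8.45 to 12.5% of a library and mitochondrial counts to 4.09 to 11.4%.

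Counts were tested with edgeR 4.0.16 (R 4.3.3, limma 3.58.1): TMM scaling, filterByExpr and the quasi-likelihood F test, with p-values adjusted by the Benjamini-Hochberg method over all genes tested at 0.05. Doses were compared within the 12 libraries of each radiation type and day. Controls over time and differences of effects came from fits of 24 libraries. Each SE was taken as the size of the log2 fold change over the root of F. Mean log2 CPM used a prior count of 2. Alternatives were DESeq2 1.42.0, library sizes without TMM, no filter, only the 2 groups compared, log2(dose + 1), the mouse as a block and each library left out. For controls over time only control libraries were left out, 1 at a time, and for differences of effects each mouse was. The day difference at 4 Gy was added after the data were seen. The scripts were checked on simulated counts.

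Per the labels, each library of a group carries a mouse number from 1 to 3, and same-numbered libraries of one radiation type were taken as one mouse and paired on that ground. Whether the same 3 mice served photons and protons is not given in the sources used here, so the mouse block was set within each radiation type, while leaving out a number in fits across both types dropped it from both. Their deviations from group means correlated on average at 0.0819, 0.087, 0.0887 and -0.0417 (photons days 2 and 6, protons days 2 and 6), and those of other libraries at -0.0449, -0.0401, -0.0424 and 0.0206. No 2 replicates agreed within sampling noise. Floors cover counting error only.

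The members and lists were chosen with earlier results of these data known. Genes named are 15 members fixed by role, the members that passed (the 5 with the smallest p where over 10 did), the highest and lowest member, and up to 5 of the second mitosis list with the smallest p, of which 1 is not reported here. Nusap1, Aurkb, Cenpe and Kif20a values by library, the promoter examples, Pttg1, and the genes of the S phase and inhibitor lists were chosen after their values were seen.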

Additional observations from a re-analysis of the deposited data

Results flagged for a closer look

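The median change of the members at 4 Gy lay on opposite sides of 0 at the 2 days in each of the 3 mice of both series, but in mouse 3 of the photon series their mean log2 CPM at day 6 was 3.03 at 4 Gy, against 3.33 in its control, so the mean there lay below 0. After photons the median log2 change of the members was 0.56, 0.74 and 0.22 at day 6 in mice 1, 2 and 3, against -0.21, -0.39 and -0.13 at day 2. The median over the members of the day 6 change minus the day 2 change, averaged over mice, was 0.6358. After protons the median was 0.17, 0.31 and 0.51 at day 6, against -0.32, -0.28 and -0.21 at day 2, and the averaged difference was 0.5705. These differences of medians were not tested. Gene by gene no member passed the edgeR test of the difference in either series. In mouse 3 of the photon series the day 6 value at 4 Gy comes from the shallowest library, where 20 of 39 members were above the control and 8 had a count of 0.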

How the results depend on the processing

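No call of a member changed sign under any alternative, while medians of comparisons near 0 did. Of 38 calls of single members after irradiation, 11 held with each library left out and under every other setting: Ccna2, Cdk1 and Aurkb at 15 Gy of protons on day 6, Ccna2 and Cdk1 there against 4 Gy, Ccna2, Cdk1, Aurkb and Cks2 in the proton trend at day 6, Cdca8 at 7 Gy and Racgap1 at 15 Gy of protons on day 2. Of 31 calls followed in the controls, those of the 15 members fixed by role and of Pttg1, 30 held throughout. There only control libraries were left out, and no irradiated library was. Over all members, counts called lower with 1 library left out ran from 34 to 38 in photon controls and from 32 to 35 in proton controls. With only the 2 groups compared, 33 members fell in photon controls in place of 38. Without the filter on low counts, members called higher numbered 12 in place of 1 at 4 Gy of photons on day 6, 3 in place of 0 at 4 Gy of protons on day 6, 3 in place of 0 for protons minus photons at 15 Gy on day 6, and 6 and 2 in place of 0 for the day difference at 4 Gy of photons and protons. Members called lower were then 3 at 7 Gy and 3 at 15 Gy of photons on day 2 in place of 0, 8 at 15 Gy in place of 2, 29 between 15 and 4 Gy in place of 2 and 6 in the trend in place of 2 after photons on day 6, and for protons 7 at 7 Gy and 1 at 15 Gy on day 2 in place of 4 and 2, 9 at 7 Gy and 9 at 15 Gy on day 6 in place of 4 and 5, 22 between 15 and 4 Gy in place of 9, and 10 in the trend in place of 6. They were also 1 in place of 0 for the proton day difference at 15 Gy, and 1 in place of 0 for protons minus photons at 7 and at 15 Gy on day 6. More genes enter without the filter. DESeq2 gave 0 in place of 1 higher at 4 Gy of photons on day 6, 1 in place of 0 higher in photon controls, 13 in place of 2 lower between 15 and 4 Gy of photons on day 6, 4 in place of 2 in the photon trend on day 6, 1 in place of 2 at 15 Gy of protons on day 2 and 1 in place of 0 for the proton day difference at 15 Gy. Library sizes without TMM gave 1 higher in photon controls, 1 lower between 15 and 4 Gy and 1 in the trend after photons on day 6, 1 at 15 Gy of protons on day 2, 2 at 7 Gy and 5 between 15 and 4 Gy of protons on day 6, and a median of -0.19 in place of -0.246 at 4 Gy of protons on day 2. That scaling put the median of all genes at 0.102, 0.184 and 0.136 for 4, 7 and 15 Gy of protons on day 6, with 36, 7 and 8 of 38 members above 0. With log2(dose + 1) as the dose, the photon trend called 1 on day 2 and 0 on day 6 and the proton trend 2 on day 2, with medians on that scale of -0.0777 and -0.0952 after photons and -0.0984 and -0.137 after protons on days 2 and 6. With only the 2 groups compared, counts were 0 higher at 4 Gy of photons and 1 higher at 4 Gy of protons on day 6, 5 lower at 15 Gy and 8 between 15 and 4 Gy of photons on day 6, 2 at 7 Gy and 4 at 15 Gy of protons on day 2, and 8 at 7 Gy and 2 between 15 and 4 Gy of protons on day 6. With the replicate block, which pairs libraries of the same mouse, counts were 0 higher at 4 Gy of photons on day 6, 1 lower between 15 and 4 Gy of photons on day 6, 7 at 7 Gy of protons on day 2, 2 at 7 Gy and 3 between 15 and 4 Gy of protons on day 6; it moved no other count of members by over 1.5 times. The share of all genes called under each of these settings is not given here, and the cause of these shifts was not tested.

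Leaving out 1 library, or 1 mouse in differences of effects, moved medians between -0.323 and -0.1 at 4 Gy, -0.448 and -0.201 at 7 Gy and -0.316 and -0.186 at 15 Gy of photons on day 2, -0.151 and 0.129 between 15 and 4 Gy there, -0.0206 and -0.0112 per Gy in that trend, -0.305 and -0.173 at 4 Gy of protons on day 2, -0.151 and -0.0147 between 15 and 4 Gy of protons, and -0.0226 and -0.0148 per Gy in that trend. Medians on day 6 moved between -0.198 and 0.334 at 7 Gy of photons, 0.2 and 0.4 at 4 Gy, -1.02 and -0.252 at 15 Gy and -1.33 and -0.525 between 15 and 4 Gy of protons, and -0.0858 and -0.0289 per Gy in the proton trend. The median for the day difference at 15 Gy ran from -0.669 to -0.15 after photons and from -0.752 to 0.199 after protons. For protons minus photons it ran from -0.125 to 0.0781, -0.299 to -0.184 and -0.0686 to -0.0294 at 4, 7 and 15 Gy on day 2, and from -0.403 to -0.28, -0.843 to -0.308 and -0.232 to 0.286 on day 6. Counts of members called higher ran from 0 to 2 at 4 Gy of photons on day 6, and from 0 to 1 at 15 Gy and in the trend of photons on day 2 and in photon controls. Counts called lower after photons ran from 0 to 1 at 15 Gy and in the trend on day 2, 0 to 5 at 15 Gy, 0 to 16 between 15 and 4 Gy and 0 to 3 in the trend on day 6. After protons they ran from 0 to 1 at 4 Gy, 1 to 9 at 7 Gy, 1 to 2 at 15 Gy and 0 to 2 in the trend on day 2, and 1 to 6 at 7 Gy, 3 to 18 at 15 Gy, 2 to 29 between 15 and 4 Gy and 4 to 20 in the trend on day 6, with 0 to 2 for the day difference at 15 Gy. With 3 mice in a group, members of low count, such as Cdc25c, Nek2, Cks2 and Bub1 at day 6, rest on few reads.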
